A study of Rattus norvegicus with 15 samples.

Results

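The genes described here are Bok and its relatives of the BCL2 family in rat liver, chosen by symbol from the deposited count table. The list had 10 symbols: the pore-forming effectors Bok, Bax and Bak1, the guardians Bcl2, Bcl2l1 and Mcl1, and the BH3-only genes Bid, Bcl2l11, Pmaip1 and Bbc3. Of the 32623 genes with a row, 8 carried one of these symbols, and 7 of these 8 passed the filter on low counts. Mcl1 and Bbc3 had no row and were not analysed here, and Bcl2 had a row but too few reads for a test. The family was picked because Bok was among the largest rises in cirrhosis, so its level in control and cirrhosis rats is given as a description without a test.

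Proteins of the BCL2 family decide at the outer mitochondrial membrane whether a stressed cell releases cytochrome c and activates caspases. Effectors form the pore, guardians hold effectors and BH3-only proteins in check, and BH3-only proteins carry the stress signal to both. BOK differs from BAX and BAK in that it sits largely at the endoplasmic reticulum, binds IP3 receptors (the calcium release channels of that organelle) and is kept low by proteasomal degradation. Apoptosis of hepatocytes is a known feature of chronic toxic liver injury.

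Poly(A) RNA was sequenced from livers of male Wistar rats in 3 groups. Control rats received neither CCl4 nor phenobarbital. Rats of the cirrhosis group inhaled CCl4, a hepatocyte toxin, over 12 weeks and drank water with 0.35 g/L phenobarbital, which speeds the conversion of CCl4 to its toxic form. Rats of the cirrhosis & eplerenone group had the same CCl4 and phenobarbital and, from week 8, also 100 mg/kg eplerenone, which blocks the mineralocorticoid receptor. Livers were collected 7 to 10 days after the end of CCl4, so the control group differs from the other groups in phenobarbital as well as CCl4, and the rats sequenced had been chosen by the authors for successful induction or treatment. The labels name 5 rats per group. The table held control replicates 2 to 5 and all 5 rats of each other group, 14 in all, and control replicate 1 was not analysed here.

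Each library held 16157491 to 21574767 reads counted on genes, so that a count of 3 stood for 0.121 to 0.191 FPM (reads per 1000000 of the library size after TMM scaling). Levels are given in FPM and describe a gene across rats. They were not divided by gene length, so one gene's level is not set against another's. A gene was called when its FDR over all 14417 genes tested was below 0.05 in both edgeR and DESeq2. Among 8 tested hepatocyte markers 1 was called and lower in cirrhosis than in control. All 6 cholangiocyte markers, 5 of 7 markers of stellate cells and myofibroblasts and 4 of 6 of T and NK lymphocytes were called and higher. So were 5 of 6 proliferation markers and the 3 neutrophil markers tested, of 5 listed. The neutrophil markers summed to 0.572 to 1.45 FPM in control rats, with 4 to 14 reads per control for S100a9. They passed the filter through CCl4-treated rats, and nothing is read from their calls. Of all genes tested 13.4% were called higher and 6.67% lower for cirrhosis against control. Of the macrophage markers 1 of 8 was called and lower, of the endothelial ones 1 was higher and 1 lower of 5, and none of the 4 B and plasma cell markers was called by edgeR and DESeq2, also none at an unadjusted p under 0.05. The summed hepatocyte markers ran from 149908 to 166232 FPM in control rats, from 84467 to 153921 FPM in cirrhosis and from 82611 to 143648 FPM in cirrhosis & eplerenone. In whole tissue, fewer cells of a type and less RNA per cell cannot be told apart.

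Bok (ENSRNOG00000018214, chromosome 9) was close to silent in control liver and abundant in cirrhosis. Control rats 2 to 5 had 1.57, 1.04, 0.916 and 1.27 FPM. Cirrhosis rats 1 to 5 had 65.9, 71.8, 80.3, 70.6 and 10.9 FPM, so 4 rats lay close together and replicate 5 far below them, though still above every control. The group means were 1.20 ± 0.287 FPM (SD, n = 4) in control and 59.9 ± 27.9 FPM (SD, n = 5) in cirrhosis. The log2FC was 5.64 with a standard error of 0.68, a 49.7-fold difference that ranked 58 among the 14417 genes tested by log2FC. Without cirrhosis replicate 5 the mean of the other 4 rats was 72.1 ± 6.01 FPM. These values led to the choice of the family and carry no test.

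In cirrhosis & eplerenone the 5 rats had 11.4, 2.88, 21.9, 12.0 and 25.9 FPM of Bok, with a mean of 14.8 ± 9.16 FPM (SD, n = 5). All 5 lay above the highest control, and 4 of them above cirrhosis replicate 5. Against control, Bok rose with a log2FC of 3.62 (standard error 0.64, 12.3-fold, edgeR FDR 0.00633), and it was called in each of the 14 fits that left out 1 rat. The control rats are shared with the comparison that led to the choice of Bok.

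Against cirrhosis, Bok in cirrhosis & eplerenone had a log2FC of -2.01 with a standard error of 0.51, which is 4.03-fold lower. The groups overlapped through cirrhosis replicate 5, and the difference was not called, with an FDR of 0.312 in edgeR and of 0.0194 in DESeq2. Without cirrhosis replicate 5 the log2FC was -2.28 and Bok was called, with an edgeR FDR of 0.0452, beside 0.181% of all genes. Of the 14 fits that left out 1 rat, this was the only 1 that called it. Leaving out the lowest cirrhosis rat widens the difference by itself, so nothing is read from this call. The cirrhosis rats in this comparison are those in which Bok was picked as high, so the difference is not independent of the choice.

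The animal labels of the CCl4-treated rats begin with 15 or 20, and what this number stands for is not given in the sources used here. Among rats with 15, Bok had a mean of 72.7 FPM in 3 cirrhosis rats and of 7.16 FPM in 2 cirrhosis & eplerenone rats, a difference of -3.63 in mean log2 FPM. Among rats with 20, the means were 40.7 FPM in 2 cirrhosis rats and 19.9 FPM in 3 cirrhosis & eplerenone rats, a difference of -0.55. Those 2 cirrhosis rats were replicate 4 (70.6 FPM) and replicate 5 (10.9 FPM), so the smaller difference there leans on replicate 5. The interaction of group and number, as fitted by edgeR on the counts, was 2.30 on the log2 scale with an FDR of 0.406, and no gene was called for this term. The unadjusted edgeR p of Bok was 0.0443. With the number as a term over the CCl4-treated rats, 0 of the 7 members tested were called between these groups by edgeR and DESeq2, as without it. Labels of control rats begin with 13 or 16, so in comparisons with control the number and the CCl4 treatment cannot be told apart.

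Cirrhosis replicate 5, the rat with low Bok, also stood apart in cell type markers. Its summed hepatocyte markers were 153921 FPM, within the control range, and its summed cholangiocyte markers were 46.4 FPM, against 104 to 142 FPM in the other cirrhosis rats. Among cirrhosis & eplerenone rats, replicate 2 had the lowest Bok, the lowest cholangiocyte sum (46.3 FPM) and the lowest sum of proliferation markers (5.38 FPM). Replicate 3, with the second highest Bok there, had the highest of both sums, 97.4 and 62.1 FPM. The order did not hold throughout. Replicate 5, with the highest Bok there, had 73.1 and 37.9 FPM, and replicate 1, with Bok at 11.4 FPM, had 86.3 and 13.1 FPM. In cirrhosis, replicates 4 and 5 had similar proliferation sums (34.8 and 32.6 FPM) with Bok at 70.6 and 10.9 FPM. The part of these markers in the level of Bok was not tested.

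**Figure D1:**
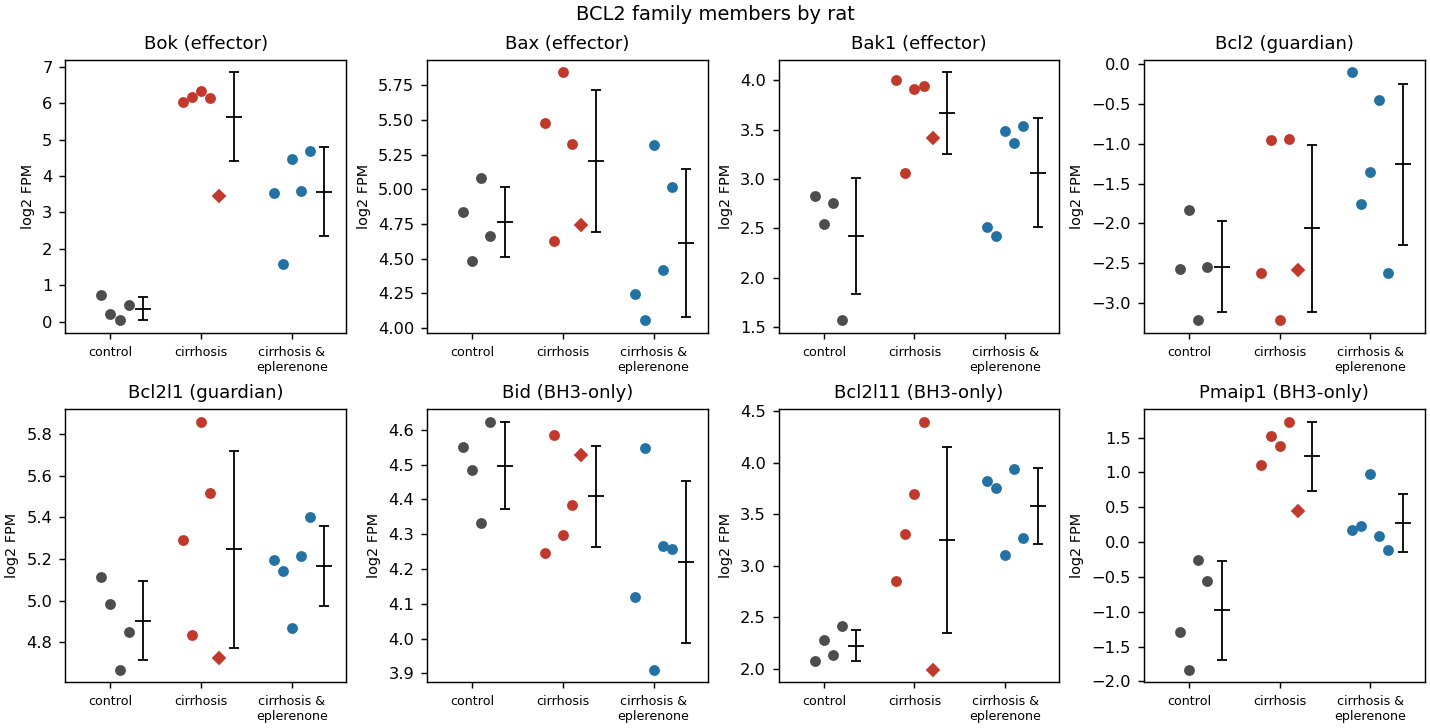
Level of each BCL2 family member in every rat, as log2 FPM (prior count 2) on the vertical axis, with a separate scale per gene. Points are rats, the diamond is cirrhosis replicate 5, and the bar beside each group is mean ± SD (control n = 4, other groups n = 5). Bok, Bak1 and Pmaip1 lie above all control rats in cirrhosis, and Bcl2 rests on 0 to 16 reads per rat.

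Bax (ENSRNOG00000020876, chromosome 1), an effector that moves from the cytosol to mitochondria, showed no called difference between groups. Control rats 2 to 5 had 28.5, 22.3, 33.7 and 25.2 FPM and cirrhosis rats 1 to 5 had 44.5, 24.6, 57.3, 40.1 and 26.7 FPM. In cirrhosis & eplerenone the values were 18.9, 16.5, 39.9, 21.3 and 32.3 FPM. All groups overlapped, with 3 of 5 cirrhosis rats above the control range and 3 of 5 cirrhosis & eplerenone rats below it. The log2FC was 0.49 (standard error 0.29, edgeR FDR 0.220) for cirrhosis against control, -0.089 (standard error 0.29, edgeR FDR 0.907) for cirrhosis & eplerenone against control and -0.58 (standard error 0.27, edgeR FDR 0.342) for cirrhosis & eplerenone against cirrhosis. None of these was called.

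Bak1 (ENSRNOG00000000485, chromosome 20), the effector that resides at the mitochondrial membrane, rose in cirrhosis. Control rats 2 to 5 had 7.00, 5.72, 6.65 and 2.86 FPM, against 15.9, 8.24, 14.9, 15.3 and 10.5 FPM in cirrhosis rats 1 to 5. In cirrhosis & eplerenone the values were 5.62, 5.26, 11.1, 10.2 and 11.5 FPM, so 3 rats were above the control range and 2 within it. Cirrhosis and control did not overlap, and the log2FC was 1.22 (standard error 0.32, 2.33-fold, edgeR FDR 0.0183). The call was lost without control replicate 5, the lowest control, where the log2FC was 1.00 and the edgeR FDR 0.0610. Cirrhosis & eplerenone lay between the other groups, with a log2FC of 0.65 against control (edgeR FDR 0.267) and of -0.57 against cirrhosis (edgeR FDR 0.368), neither called.

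As with Bok, the gap of both other effectors between the CCl4-treated groups was wider among rats whose label begins with 15. Bax was at 42.1 FPM in cirrhosis and 17.7 FPM in cirrhosis & eplerenone there, and at 33.4 and 31.2 FPM among rats with 20. For Bak1 the means were 13.02 and 5.44 FPM with 15, and 12.9 and 10.9 FPM with 20. The cirrhosis means with 20 again rest on replicates 4 and 5 alone. The same interaction had an edgeR FDR of 0.416 for Bax and of 0.415 for Bak1.

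Among the guardians, Bcl2l1 (ENSRNOG00000007946, chromosome 3), which encodes BCL-XL, the main survival factor of hepatocytes beside MCL1, was measured well. Control rats 2 to 5 had 34.6, 31.5, 25.3 and 28.7 FPM. Cirrhosis rats 1 to 5 had 39.1, 28.5, 58.0, 45.7 and 26.3 FPM, and the values with eplerenone were 36.6, 35.2, 29.1, 37.0 and 42.2 FPM. Each pair of groups overlapped. No comparison was called, with a log2FC of 0.40 (standard error 0.21, edgeR FDR 0.185) for cirrhosis against control, 0.26 (standard error 0.21, edgeR FDR 0.552) for cirrhosis & eplerenone against control and -0.13 (standard error 0.20, edgeR FDR 0.745) between the CCl4-treated groups. Scaling to total counts in place of TMM made the first value 0.68 and called it. That scaling moved the median of all genes by 0.29 in this comparison.

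Bcl2 (ENSRNOG00000002791, chromosome 13), the founding guardian, was at the limit of detection. It had 1, 3, 0 and 1 reads in control rats 2 to 5, then 1, 10, 0, 8 and 1 reads in cirrhosis, and 16, 3, 7, 11 and 1 reads in cirrhosis & eplerenone. The groups overlapped and no fold change is given. Counts above 3 occurred in 2 of 5 cirrhosis rats and in 3 of 5 cirrhosis & eplerenone rats, and in no control.

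Of the BH3-only genes, Pmaip1 (ENSRNOG00000018770, chromosome 18), which encodes NOXA, a selective antagonist of MCL1, rose in cirrhosis. Control rats 2 to 5 had 0.302, 0.173, 0.733 and 0.572 FPM, that is 3 to 12 reads. Cirrhosis rats 1 to 5 had 2.05, 2.77, 2.48, 3.18 and 1.25 FPM, all above the highest control, and 21 to 68 reads. The log2FC was 2.39 (standard error 0.47, 5.24-fold, edgeR FDR 0.00396), and Pmaip1 was called in each of the 14 fits that left out 1 rat. Of the controls only replicate 4, with 12 reads, reached the filter's smallest count of 10. Pmaip1 thus passed the filter through CCl4-treated rats, and nothing is read from its call.

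With eplerenone Pmaip1 was at 1.02, 1.06, 1.86, 0.959 and 0.820 FPM. These rats lay above all controls, and 4 of 5 lay below all cirrhosis rats. Neither comparison was called: the log2FC was 1.36 against control (standard error 0.46, edgeR FDR 0.100, DESeq2 FDR 0.0439) and -1.03 against cirrhosis (standard error 0.40, edgeR FDR 0.316).

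Bcl2l11 (ENSRNOG00000016551, chromosome 3), which encodes BIM, a BH3-only protein that binds all guardians, was called higher against control in both CCl4-treated groups. Besides the preselected Bok, no other member was called in both. Pmaip1 also lay above all controls in both groups but was called in cirrhosis only. Control rats 2 to 5 had 4.10, 4.74, 4.27 and 5.22 FPM. Cirrhosis rats 1 to 5 had 7.10, 9.83, 12.9, 21.0 and 3.87 FPM, so 4 were above all controls and replicate 5 below them. In cirrhosis & eplerenone all rats were above the controls, with 14.1, 13.4, 8.50, 15.3 and 9.51 FPM. The log2FC against control was 1.26 for cirrhosis (standard error 0.37, 2.39-fold, edgeR FDR 0.0301) and 1.40 for cirrhosis & eplerenone (standard error 0.38, 2.65-fold, edgeR FDR 0.0420).

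Both calls of Bcl2l11 were close to the threshold. The first was lost without any 1 of the 4 control rats or without cirrhosis replicate 3 or 4, with edgeR FDR of 0.0617 to 0.0735. The second was lost in 9 of 14 such fits (without any 1 control, without cirrhosis replicate 2, or without cirrhosis & eplerenone replicate 1, 3, 4 or 5), with edgeR FDR of 0.0519 to 0.107. Cirrhosis & eplerenone and cirrhosis differed by a log2FC of 0.15 (standard error 0.34, edgeR FDR 0.837), which was not called.

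Bid (ENSRNOG00000012439, chromosome 4), which is cleaved by caspase-8 and links death receptors to mitochondria, stayed in a narrow range. It was at 20.02 to 24.5 FPM in control, 18.9 to 23.9 FPM in cirrhosis and 14.9 to 23.3 FPM in cirrhosis & eplerenone. The log2FC was -0.087 (standard error 0.15, edgeR FDR 0.689), -0.27 (standard error 0.15, edgeR FDR 0.343) and -0.18 (standard error 0.14, edgeR FDR 0.521) for cirrhosis against control, cirrhosis & eplerenone against control and cirrhosis & eplerenone against cirrhosis. With total counts in place of TMM the first became 0.21 and the second 0.024.

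**Figure D2:**
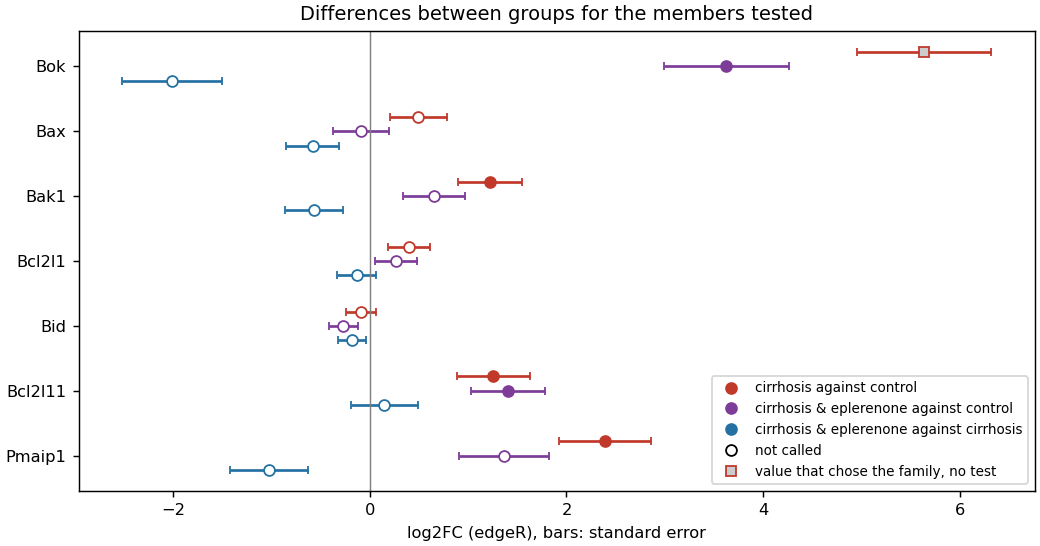
log2FC from edgeR on the horizontal axis for the 7 members tested, with bars for the standard error, in each comparison of groups. Filled circles are called (FDR below 0.05 in both tools), open circles are not, and the gray square is the value that led to the choice of the family. Bcl2l11 has filled circles against control in both CCl4-treated groups, and all circles for cirrhosis & eplerenone against cirrhosis are open.

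Bok aside, 3 of the 6 members tested were called for cirrhosis against control, all higher: Bak1, Bcl2l11 and Pmaip1. Of all genes tested 20.1% were called in this comparison, 13.4% higher and 6.67% lower, and nothing is read from the members' count since the family was chosen there. The median log2FC of these 6 was 0.86, against -0.011 over all genes. The groups did not overlap for Bak1 and Pmaip1, beside 11.2% of all genes with higher, non-overlapping values in cirrhosis. For cirrhosis & eplerenone against control, 2 of 7 were called, Bok and Bcl2l11, beside 5.2% of all genes and 4.33% called higher. Bok, Bcl2l11 and Pmaip1 did not overlap there, beside 6.42% of all genes.

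For cirrhosis & eplerenone against cirrhosis, 0 of 7 members were called in edgeR and DESeq2 together, beside 0.0139% of all genes. DESeq2 alone called 1 member, Bok, and 0.513% of all genes. An unadjusted edgeR p under 0.05 was found for 3 of 7 members, Bok, Bax and Pmaip1, and for 14.4% of all genes. A fit with 4 rats per group, without cirrhosis replicate 5 and cirrhosis & eplerenone replicate 3, called Bok (log2FC -2.48), Bax (-0.92) and Pmaip1 (-1.45), beside 9.15% of all genes. That pair of rats was set with earlier results of these data known. It holds the lowest Bok and Pmaip1 of the cirrhosis group and the highest Bax and Pmaip1 of the other group, so leaving it out widens these differences by itself and nothing is read from the calls. Over all rats, 6 of the 7 log2FC values were negative, with a median of -0.57 over the members, -0.37 without Bok and 0.011 over all genes. The effectors and Pmaip1 made up the lower values, and Bcl2l11 was the member with a positive one, which turned to -0.067 without cirrhosis replicate 5.

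The effectors were also set against the guardians within each rat, as the mean log2 FPM of Bax and Bak1 minus that of the guardians, in which the scaling of a library cancels. Its absolute value depends on gene lengths, and only its differences between groups are read. With Bcl2 and Bcl2l1 as guardians the 4 control rats had a mean of 2.41 ± 0.59 (SD). The 5 cirrhosis rats had 2.84 ± 0.70 and the 5 rats with eplerenone 1.89 ± 0.85. The differences were 0.43 for cirrhosis against control, -0.53 for cirrhosis & eplerenone against control and -0.96 between the CCl4-treated groups, and the ranges of all groups overlapped. Bcl2 rests on few reads, so it adds counting noise to this measure, and it also shifts the measure between groups. With a prior count of 0.5 in place of 2 the differences were 0.33, -0.86 and -1.19. With Bcl2l1 as the only guardian, a choice made after the counts of Bcl2 were seen, the differences were 0.50, -0.018 and -0.51. With Bok added to the effectors they were 1.90, 0.46 and -1.44, and the ranges of control and cirrhosis no longer overlapped, a separation that the choice of Bok brings with it. Mcl1 is missing from the guardians here.

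**Figure D3:**
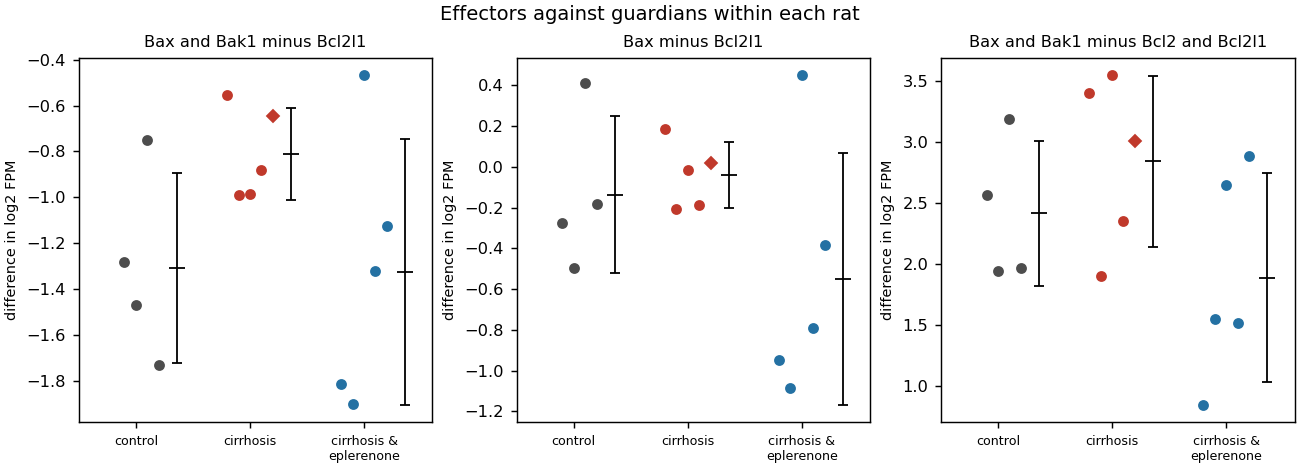
Difference in log2 FPM between effectors and guardians within each rat, for Bax and Bak1 against Bcl2l1, Bax against Bcl2l1, and Bax and Bak1 against Bcl2 and Bcl2l1, all without Bok, with mean ± SD beside each group (control n = 4, other groups n = 5) and a diamond for cirrhosis replicate 5. In each of these panels the ranges of the groups overlap, and the cirrhosis & eplerenone rats spread more widely than the cirrhosis rats.

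Of the 8 members with a row, 6 had a promoter in the RefSeq table of rat promoters (GRCr8), of which the 250 bases before the gene start were read. The table's build is not that of the counts, which used rn6. The upstream sequences of Bcl2l11 and Bak1 are shown as examples of the members other than Bok that were called in cirrhosis, and of Pmaip1, the third of them, the matches alone are given. Capitals mark matches, on either strand, to a GC box (GGGCGG), a CRE half-site (TGACG), a FOXO core (GTAAACA), an AP-1 site (TGANTCA) or a TATA box (TATAAA). No 2 marked matches overlap. Both are written 5′ to 3′ on the strand of the gene, chr3:135819792-135820041 (plus strand) for Bcl2l11 and chr20:5110975-5111224 (minus strand) for Bak1.
Bcl2l11: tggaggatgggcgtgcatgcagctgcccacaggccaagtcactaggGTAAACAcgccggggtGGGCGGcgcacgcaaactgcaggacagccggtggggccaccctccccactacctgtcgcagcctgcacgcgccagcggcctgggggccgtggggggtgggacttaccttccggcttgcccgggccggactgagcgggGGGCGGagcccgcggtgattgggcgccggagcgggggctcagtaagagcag
Bak1: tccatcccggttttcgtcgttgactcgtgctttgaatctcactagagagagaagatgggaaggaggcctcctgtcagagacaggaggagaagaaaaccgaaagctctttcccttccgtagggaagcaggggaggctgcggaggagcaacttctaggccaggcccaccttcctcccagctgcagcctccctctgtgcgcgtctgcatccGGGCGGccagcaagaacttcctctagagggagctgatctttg
Bcl2l11 held 2 GC boxes and 1 FOXO core, 204 bases before the start, and Bak1 held 1 GC box. Pmaip1 held 1 GC box and 2 CRE half-sites, 64 and 54 bases before the start, and Bid held 3 GC boxes. Bcl2 held 1 TATA box. None of the 5 motifs was in the 4 promoters listed for Bcl2l1. Over all 33469 promoters of this length, 30.5% held a GC box, 18.2% a CRE half-site, 3.21% a FOXO core, 6.34% an AP-1 site and 12.9% a TATA box. These matches describe letters in a window and do not show binding.

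To place Bok among other genes, its profile over the 14 rats was compared with those of 12292 protein coding genes with a mean of at least 1 FPM, by the root mean square difference in centred log2 FPM. The SD of Bok was 2.30 on this scale and the median gene lay 2.36 from it. The nearest genes were Serpinb1a (0.48), an inhibitor of neutrophil proteases, Cxcl6 (0.60), a neutrophil chemokine, Cldn6 (0.63), a tight junction protein of embryonic epithelia, Syt1 (0.66), a calcium sensor of vesicle release, and Parm1 (0.68), a membrane mucin. They were chosen for this likeness and carry no test.

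Serpinb1a had a mean of 1.503 ± 0.466 FPM in control, 65.7 ± 30.9 FPM in cirrhosis and 18.6 ± 13.4 FPM in cirrhosis & eplerenone (SD, n = 4, 5 and 5). In cirrhosis replicate 5 it was at 12.9 FPM, against 70.1 to 92.7 FPM in the other 4 cirrhosis rats, the same split as for Bok. Cxcl6 and Syt1 had 2 and 1 reads in all controls together, and Cldn6 had 5. Among the members, Pmaip1 was nearest to Bok with a difference of 1.51. It ranked 663 over all genes tested, a wider set than the protein coding genes compared above. Bak1 (1.81), Bcl2l11 (1.93), Bax (2.09), Bcl2l1 (2.14) and Bid (2.38) followed. Bid was thus farther from Bok than the median gene.

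**Figure D4:**
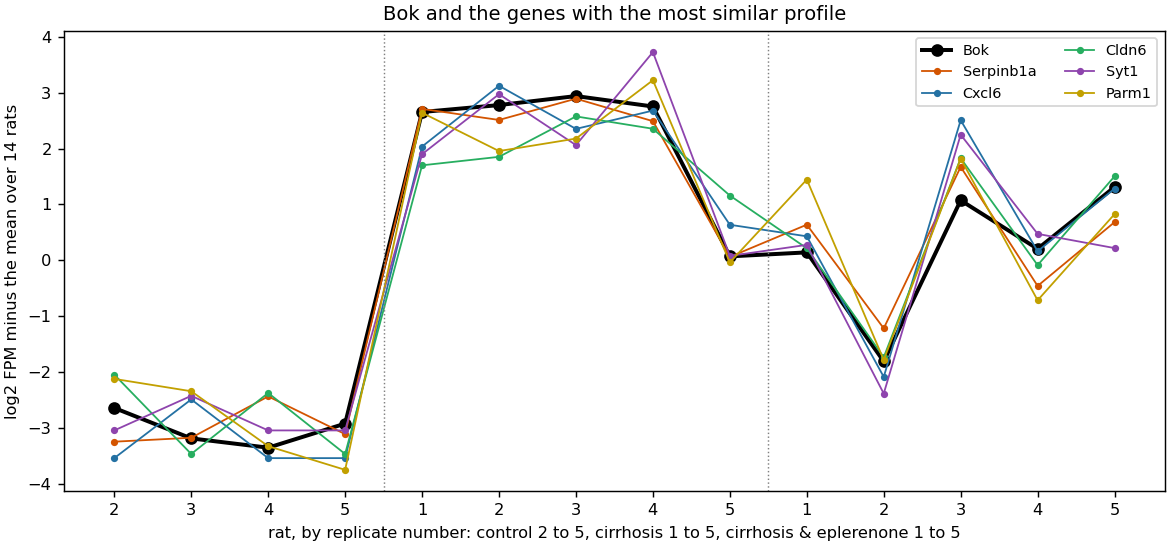
Profile of Bok (black) and of the 5 protein coding genes with the most similar one, as log2 FPM minus the gene's mean over 14 rats, with dotted lines between the groups. All 6 genes are low in control rats, high in cirrhosis replicates 1 to 4 and lower in cirrhosis replicate 5, and lowest among the CCl4-treated rats in cirrhosis & eplerenone replicate 2.

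The rest of the apoptosis pathway was taken from lists of 75 genes, of which 72 had a row and 67 passed the filter. For cirrhosis against control 13 of 67 were called, 10 higher and 3 lower, beside the 20.1% of all genes given above, and their median log2FC was 0.13. Of the other BCL2 family genes, 4 of 10 were called. Bcl2a1, a guardian typical of leukocytes, rose from 2.54 ± 0.473 to 15.6 ± 7.91 FPM (log2FC 2.61, edgeR FDR 0.00255). Bik, a BH3-only gene of the endoplasmic reticulum, rose from 0.212 ± 0.211 to 2.16 ± 1.55 FPM (log2FC 3.31, edgeR FDR 0.0320), with groups that overlapped. Bcl2l14, a less studied relative, was higher (log2FC 3.33, edgeR FDR 0.0195) on 0 to 3 reads per control and 6 to 28 per cirrhosis rat. Bik had 0 to 7 reads per control. No control reached the filter's smallest count of 10 for Bik or Bcl2l14. Both thus passed the filter through CCl4-treated rats, and nothing is read from their calls. Bmf, a BH3-only gene tied to the cytoskeleton, fell from 28.5 ± 6.68 to 9.37 ± 3.995 FPM (log2FC -1.61, edgeR FDR 0.0241).

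Partners of Bok and Bak1 had 2 of 8 genes called, beside 20.1% of all genes. The IP3 receptor gene Itpr3 rose from 1.10 ± 0.570 to 3.86 ± 0.961 FPM (log2FC 1.80, edgeR FDR 0.00737), and Vdac2, a mitochondrial channel that holds BAK, rose by a log2FC of 0.52 (edgeR FDR 0.0446). The other IP3 receptors were not called, with a log2FC of 0.21 for Itpr1 and -1.14 for Itpr2 (edgeR FDR 0.714 and 0.0735).

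Downstream of the mitochondria, none of 13 apoptosome and caspase genes was called by edgeR and DESeq2, beside 20.1% of all genes. An unadjusted edgeR p under 0.05 was found for 2, Casp6 and Aifm1, beside 37.1% of all genes. The log2FC of the 13 genes ran from -0.47 to 0.46, with Casp9, the initiator caspase of the apoptosome, at 0.36 (edgeR FDR 0.211). Of 5 inhibitors of apoptosis 3 were called, beside the same 20.1% of all genes. Birc5, which encodes survivin and is made in dividing cells, rose (log2FC 2.14, edgeR FDR 0.0148), as did Birc3 (1.18, edgeR FDR 0.0404). Xiap, a direct caspase inhibitor, fell (log2FC -1.71, edgeR FDR 0.0376). The level of Birc5 moved beside 5 of 6 proliferation markers called higher.

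The counts of the next lists stand beside the 20.1% of all genes called for cirrhosis against control. Death receptor genes had 3 of 11 called. The receptor gene Fas rose by a log2FC of 1.06 (edgeR FDR 0.0246) and Tnfsf10, which encodes the ligand TRAIL, by 0.77 (edgeR FDR 0.0225), and Cflar, an inhibitor of caspase-8 activation, fell with a log2FC of -0.83 (edgeR FDR 0.0482). Of 14 genes of the p53 axis 1 was called, Gadd45b, a stress-induced gene (log2FC 2.22, edgeR FDR 0.0295). None of 6 upstream regulators of BH3-only genes was called by edgeR and DESeq2, and 2 had an unadjusted edgeR p under 0.05, beside 37.1% of all genes.

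With each rat left out in turn, Bcl2a1 and Itpr3 were called in all 14 fits. Birc5 lost its call only without control replicate 5 (edgeR FDR 0.0532). Fas lost it in 3 fits, without control replicate 2 or 3 or cirrhosis replicate 4, Bmf in 4, without control replicate 3, 4 or 5 or cirrhosis replicate 4, and Tnfsf10 in 5, without any 1 control or cirrhosis replicate 4. Bik, Xiap and Gadd45b lost it in 6 fits each, Birc3 and Vdac2 in 7 each and Cflar in 11, with edgeR FDR of 0.0529 to 0.141. Bcl2l14 was tested in 10 of these fits and lost the call in 2, without control replicate 2 or 5.

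For cirrhosis & eplerenone against control, 1 of the 67 pathway genes was called, Gadd45b, beside 5.2% of all genes. Its log2FC was 2.94 (edgeR FDR 0.0208), with 18.6 FPM as the median of 5 rats and 79.5 FPM as the highest. The call was lost without control replicate 2, 3 or 5. Between cirrhosis & eplerenone and cirrhosis 0 of 67 were called by edgeR and DESeq2, each alone also 0, beside 0.0139% of all genes in both. An unadjusted edgeR p under 0.05 was found for 10 of 67, beside 14.4% of all genes. Without cirrhosis replicate 5 and cirrhosis & eplerenone replicate 3, 5 of the 66 tested there were called, beside the 9.15% of all genes in that fit: Bcl2a1 (log2FC -1.97), Fas (-0.97) and Phlda3 (-1.26) lower, and Bmf (1.30) and Itpr2 (1.505) higher with eplerenone. Phlda3 and Itpr2 were named after their values were seen.

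**Figure D5:**
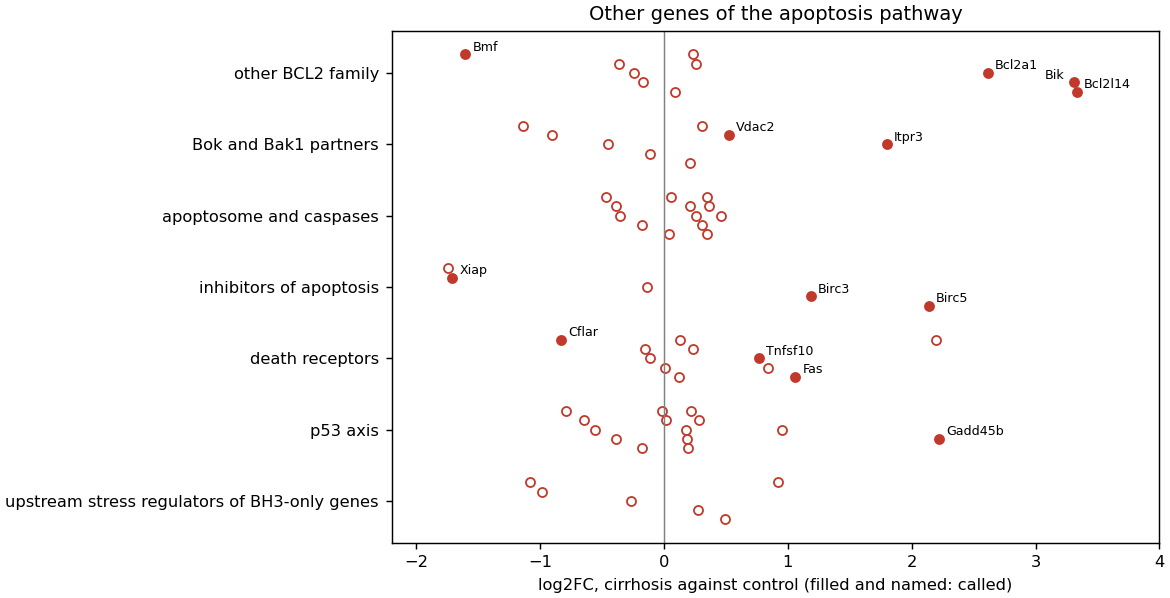
log2FC for cirrhosis against control on the horizontal axis for the 67 other apoptosis genes tested, by list. Filled and named points are called (FDR below 0.05 in both tools). The apoptosome and caspase genes lie between -0.47 and 0.46 with no filled point, and the BCL2 relatives spread from -1.61 to 3.33.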

How the data were processed

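The authors mapped reads of 150 bp from both ends to rn6 with HISAT2 2.1.0 and counted them over exons with featureCounts, at each place for reads that map to several. The deposited values are raw counts per gene. Duplicate members of gene families may therefore share reads. Counts were filtered with filterByExpr (edgeR 4.0.16, smallest count 10), scaled by TMM and fitted over all 3 groups in 1 model by the edgeR quasi-likelihood test and by the DESeq2 1.42.0 Wald test in R 4.3.3. FDR are Benjamini-Hochberg values over all genes tested, and log2FC and standard errors come from edgeR. log2 FPM used a prior count of 2. Steps were tested on simulated data.

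The members, pathway lists and marker lists were chosen with earlier results of these data known. Called pathway genes are named where 5 or fewer of a list were called, together with the 5 genes most like Bok. The rats of a group are separate animals, and p-values weigh the difference between groups against the spread between rats. Alternatives changed the tool, scaling, filter, genes tested, samples and replicate block. Some genes of the pathway lists are not reported by name here.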

Additional observations from a re-analysis of the deposited data

Results flagged for a closer look

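Of 24 sets of 4 or 5 rats examined for the members with a row, 1 held a rat far from the others, and chance gives about 1 in 20. It was Bok in cirrhosis, where replicate 5 had 10.9 FPM and the nearest rat 65.9 FPM. On the log2 FPM scale the gap was 0.901 of the whole range, above the critical value of 0.71 for 5 samples. The same rat had the lowest Bcl2l11, Bcl2l1 and Pmaip1 of its group, without being as far from the others there.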

How the results depend on the processing

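All calls of members for cirrhosis against control were kept under another scaling, filter or set of genes wherever the member was tested. Pmaip1 drops out when at least 10 counts are required in every sample. A call needs both tools, so keeping it with either tool alone was fixed in advance and nothing is read from that. Leaving out 1 rat gave 2 to 4 called members (Bok counted among them) for cirrhosis against control, 1 to 2 for cirrhosis & eplerenone against control and 0 to 1 between the CCl4-treated groups, and 3 to 15, 0 to 2 and 0 to 0 called pathway genes. For cirrhosis against control both lows came without control replicate 5. The 15 came without cirrhosis replicate 5, where 32% of all genes were called, against 20.1% with all rats. For the other fits with 1 rat left out and for total counts the share of all genes is not given. Nothing is therefore read from how these counts move. Between the CCl4-treated groups 1 member was called with DESeq2 alone and 3 members and 5 pathway genes with 4 rats per group, where 9.15% of all genes were called. For cirrhosis & eplerenone against control 3 of 67 pathway genes were called by DESeq2 alone, beside 1523 of all 14417 genes, and 5 with total counts. Total counts moved the median log2FC of all genes by 0.29 and 0.32 in the comparisons with control and by 0.031 between the CCl4-treated groups. They turned Bax to 0.29 in cirrhosis & eplerenone against control, and Bid to 0.21 and 0.024 in the comparisons with control. With 1 rat left out Bax there ran from -0.30 to 0.036, and was above 0 without control replicate 4 or cirrhosis & eplerenone replicate 1 or 2. Between the CCl4-treated groups Bcl2l1 ran from -0.25 to 0.043 (without cirrhosis replicate 3) and Bcl2l11 from -0.067 (without cirrhosis replicate 5) to 0.52. The effector difference ran from 0.25 to 0.69, -0.78 to -0.27 and -1.20 to -0.69 with 1 rat left out, and was 1.90 and 0.46 in the comparisons with control with Bok added. The cause of these changes was not tested.

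Replicate numbers do not pair the rats: same-numbered rats had correlations of -0.33 to 0.19, and 0 of 14 correlated best with their own number. With the number as a replicate block, 3, 1 and 0 members and 6, 1 and 0 pathway genes were called. The share of all genes called with this block is not given, so nothing is read from these counts. The call lost for members was that of Bcl2l11 in both comparisons with control. No alternative gave a log2FC for Mcl1 or Bbc3, which have no row, and none is given for Bcl2, whose reads are too few.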
